A study of Mus musculus with 6 samples.

Results

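The axon guidance genes described here are the semaphorins of classes 3 to 7, the plexins and neuropilins, the slits and robos, the ephrins and Eph receptors, and the netrins and netrin-Gs with the Unc5 receptors and Dcc. They were taken by gene symbol from the array annotation, among probe sets listed for 1 gene alone, which gave 72 of 18193 genes and 159 of 45037 probe sets. The symbol rule also took in 2 genes that only share a name, Plxna4os1, an antisense transcript of the Plxna4 locus, and Unc5cl, an Unc5c-like gene. Their log2 fold changes were 0.08 and -0.27. Without these, 70 genes remained, 37 of ligands and 33 of receptors. Unless another is named, values are those of a gene's brightest probe set, the one with the highest mean log2 intensity over the 6 arrays.

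Dorsal root ganglia (DRGs) of all levels sampled, cervical, thoracic and lumbar, were taken at P60 from 3 Meis1cko and 3 control mice, and each mouse had its own Affymetrix mouse genome array. Meis1cko mice, labelled Meis1 mutant, carry a floxed allele of the homeodomain transcription factor gene Meis1 and a Nav1.8-Cre transgene, whose sodium channel promoter drives Cre recombinase in most nociceptors, the sensory neurons for painful stimuli. The array controls are labelled only as control, and the behavioural experiments of the same study used Meis1F/F littermates as controls. Levels are intensities as normalized by the authors, on a linear scale, differences are log2 fold changes of Meis1cko over control from limma, and errors of means are SDs over 3 mice. Because whole ganglia were extracted, fewer cells of a type and less RNA per cell cannot be told apart, and each value sums over neurons, glia, blood vessels and sheath.

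Axon guidance ligands are secreted or membrane-bound proteins that turn, repel or attract a growing axon through receptors on its growth cone. Class 3 semaphorins are secreted and bind neuropilins, which pair with A-type plexins for signalling, whereas the membrane-bound semaphorins bind plexins directly. Slits repel axons through robos, ephrins signal through Eph receptor tyrosine kinases on contact, and netrins attract axons through Dcc and repel them through Unc5 receptors. In the embryo these systems steer sensory axons into the spinal cord and the skin, and many members are still transcribed in adult ganglia.

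Meis1 itself, the targeted gene, had intensities of 66.0, 72.1 and 64.2 in Meis1cko DRGs, against 109.7, 144 and 90.2 in control DRGs. The mice of the 2 genotypes did not overlap, with a log2 fold change of -0.74 (SE 0.18, limma adjusted p = 1.0). Of its other probe sets, both dimmer, one was higher in Meis1cko without overlap, at 34.2, 33.8 and 36.8 in Meis1cko and 33.7, 29.9 and 32.3 in control DRGs (0.13), and the other overlapped (-0.16). Which of the 3 lie in the deleted exon is not given in the sources used here. Array medians lay between 62.5 and 65.5. The replicate 3 array of each genotype stood apart from the other arrays: for the Actb control probe sets, the log2 signal at the 3′ end minus that at the 5′ end was 0.44 in Meis1cko and 0.42 in control for replicate 3, and 1.23 to 1.66 on the other 4 arrays. Sensory neuron markers were all at or above the array median (10 of 10 genes, median log2 fold change 0.04), and 1 of 8 spinal cord markers was.

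Since Meis1 encodes a DNA-binding protein, the promoters of the guidance genes were searched for TGACAG, the core letters of the MEIS recognition sequence, on both strands. The windows are 300 bases of RefSeq sequence (GRCm38.p6), from 250 bases before to 50 bases after an annotated start. Of 77 promoters matched to 61 guidance genes, 13 held the motif (16.9%), against 19.2% of all 32851 promoters, and by gene the shares were 16.4% and 21.6%. The following windows, written on the gene's strand, show the match in Efnb2 and Sema7a, whose intensities are described below, and in Plxna2 and Ntn4. Capitals mark TGACAG, or CTGTCA where the motif lies on the other strand.
Efnb2, chr8:8661235-8661280, minus strand: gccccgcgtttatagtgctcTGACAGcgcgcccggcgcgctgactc
Efnb2, chr8:8661381-8661426, minus strand: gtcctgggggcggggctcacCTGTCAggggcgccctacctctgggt
Sema7a, chr9:57939872-57939917, plus strand: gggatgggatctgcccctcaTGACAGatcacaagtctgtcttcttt
Plxna2, chr1:194619614-194619659, plus strand: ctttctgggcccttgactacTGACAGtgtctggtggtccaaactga
Ntn4, chr10:93640910-93640955, plus strand: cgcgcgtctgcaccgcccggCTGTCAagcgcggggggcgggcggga

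The Efnb2 matches began 18 and 164 bases before the start site, the Sema7a match 220, the Plxna2 match 195 and the Ntn4 match 119 bases before it. The other genes with a match were Efna3, Robo2, Sema3g, Sema4a, Sema4d and Sema6c. A match is a run of letters and not a bound site. None of these 10 genes had an unadjusted p under 0.05 on its brightest probe set. Efnb3, the only member with such a p, had no promoter among those searched, so this could not have come out otherwise.

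Many of the guidance genes were read at or above the array median in adult DRGs of both genotypes. Of the 72 genes, 51 (70.8%) lay at or above the array median on all 6 arrays, against 62.7% of all genes. This held for 29 of 37 ligands and 22 of 33 receptors, including all 9 plexins, both neuropilins and all 4 EphB receptors, but for 1 of 4 robos and 3 of 9 EphA receptors. Ntn3 and Robo2 were dim, under the 25th percentile on all 6 arrays. Intensities of different probe sets depend on their probes, so levels are compared between mice and not between genes.

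**Figure D1:**
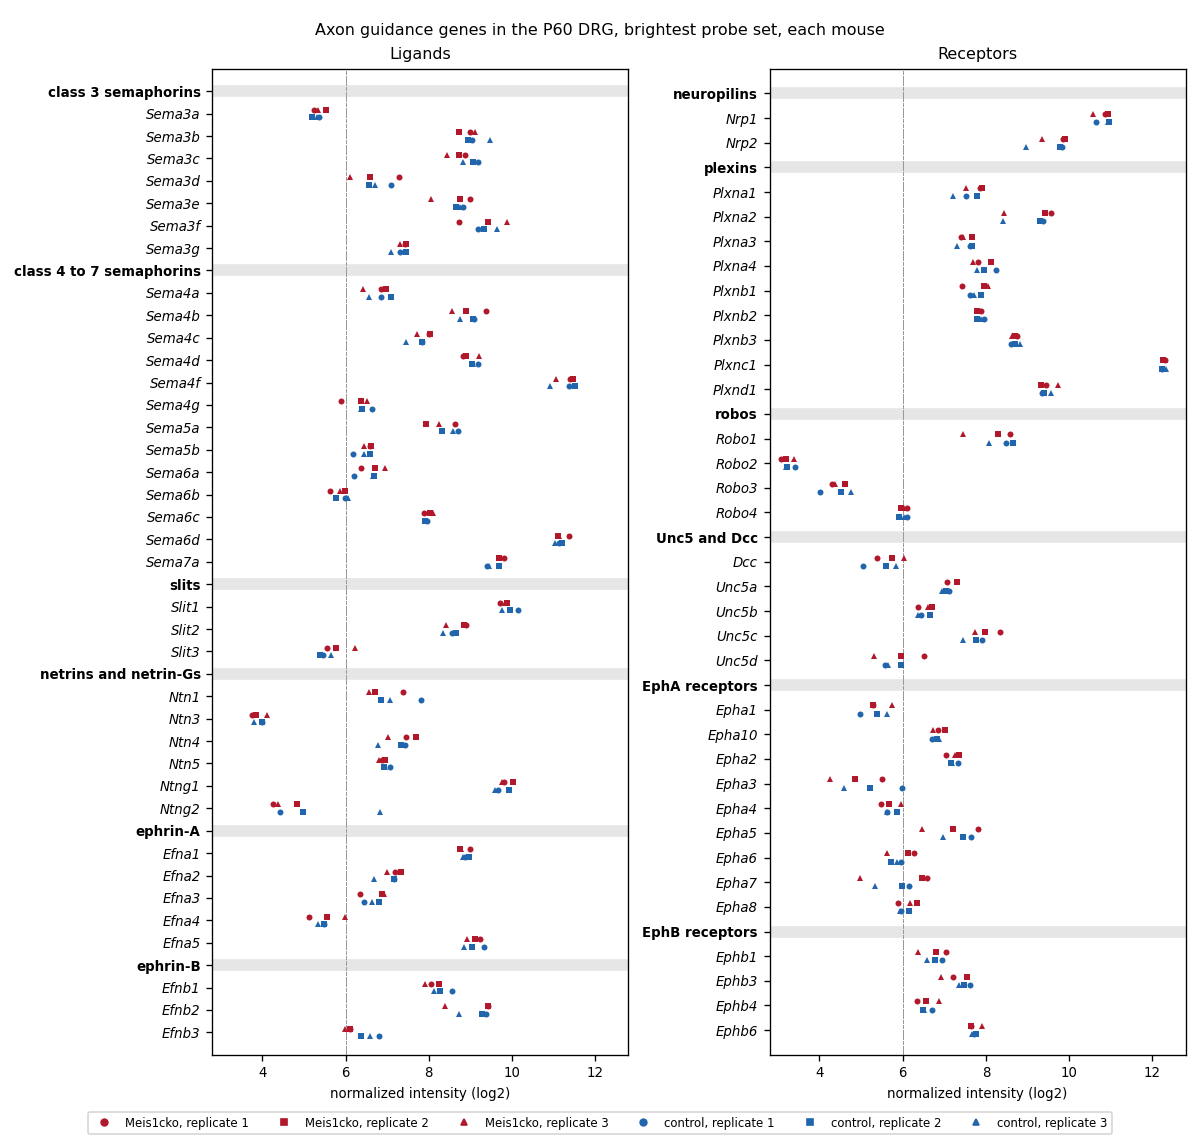
Normalized log2 intensity of the brightest probe set of 70 axon guidance genes in each mouse, grouped by family, with ligands on the left and receptors on the right. Red points are Meis1cko and blue points control mice, symbols mark replicate numbers, and the dashed lines mark the array median. Except in Efnb3, the mice of the 2 genotypes overlap, and in genes such as Nrp2, Plxna2, Epha7 and Efnb2 the triangles of replicate 3 sit apart in both genotypes.

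Between genotypes, no guidance gene differed past the adjusted threshold of 0.05. All 72 had a limma adjusted p of 1.0 over the 45037 probe sets, and 0 of their 159 probe sets were called, against 0.0155% of all probe sets and 0.0055% of the brightest. At an unadjusted p under 0.05, 1 of 72 genes was counted, Efnb3, against 2.56% of all genes. At the thresholds of the study's methods, a fold change over 1.5 with an unadjusted p under 0.05, 0 genes were higher and 0 lower on the brightest probe set (backgrounds 0.324% and 0.456%). The methods' t-test counted the same number at an unadjusted p under 0.05, 1 of 72, against 3.31% of all genes.

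The median log2 fold change was 0.01 over the 72 genes, with 39 above and 33 below 0, and -0.01 over all genes, of which 45.8% were above 0. It was -0.04 over the ligands (17 above and 20 below 0) and 0.03 over the receptors (21 above and 12 below 0). The 95% interval of the difference lay within 2-fold either way for 68 of 72 genes (94.4%, all genes 96.5%). Within 1.5-fold it lay for 40 genes (55.6%, all genes 73%), so a 1.5-fold difference is within the interval of the others. With 3 mice against 3, an exact permutation test of 1 gene cannot give a two-sided p under 0.1.

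**Figure D2:**
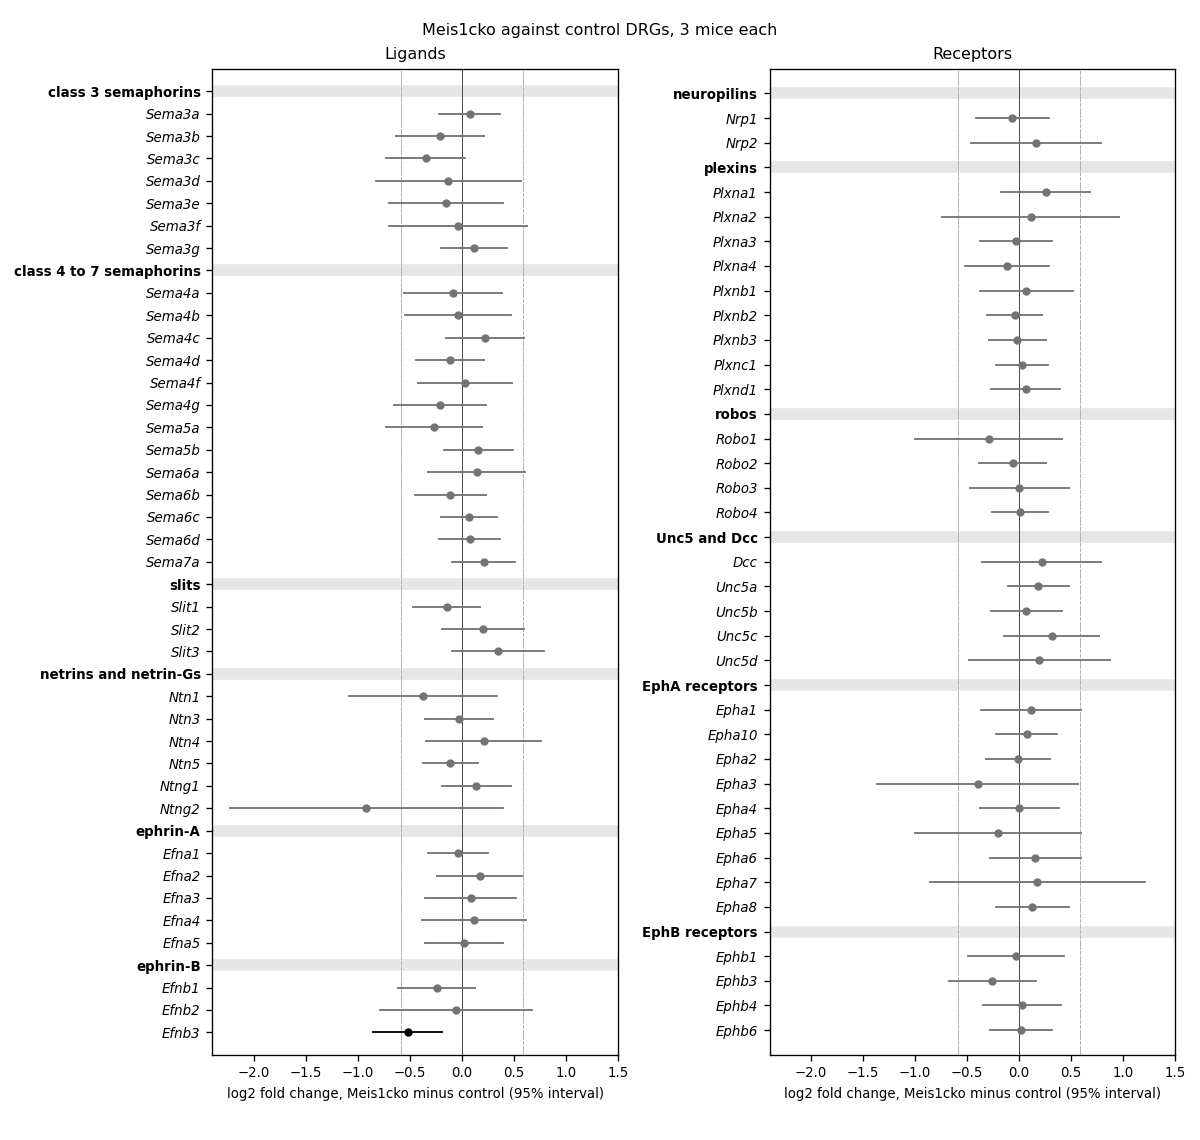
Log2 fold change of Meis1cko over control with its 95% interval from limma, for the brightest probe set of 70 axon guidance genes (3 mice per genotype). Dashed lines mark a 1.5-fold difference either way, and black marks an unadjusted p under 0.05. Efnb3 at -0.52 is the gene whose interval leaves out 0, and the widest interval is that of Ntng2.

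Among the ligands, the one gene without overlap between genotypes was an ephrin-B gene. Ephrin-B genes encode transmembrane ligands that can also signal back into the cell that carries them. Efnb3, known in mice for the midline barrier that keeps corticospinal axons on their side of the spinal cord, had intensities of 68.5, 69.2 and 63.9 in Meis1cko DRGs. In control DRGs it had 111, 82.9 and 96.9. All 3 Meis1cko mice lay below all 3 control mice. The Meis1cko values were near the array medians of 62.5 to 65.5. The means were 67.2 ± 2.86 in Meis1cko and 97.1 ± 14.3 in control, a log2 fold change of -0.52 (SE 0.14, 95% interval -0.85 to -0.19, limma adjusted p = 1.0). With the replicate numbers as a block its limma adjusted p was 0.338. It was 1 of 72 genes lower without overlap, against 3.82% of all genes, and 0 were higher without overlap, against 3.12%.

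Efnb1, altered in human craniofrontonasal syndrome, had intensities of 266, 305 and 240.4 in Meis1cko, against 375, 308 and 279.6 in control DRGs, a log2 fold change of -0.24 (95% interval -0.61 to 0.13). Each Meis1cko mouse lay below its numbered control, but the groups overlapped. Efnb2, whose product marks arteries as well as repelling axons, had intensities of 683, 684 and 334 in Meis1cko DRGs and of 661, 621 and 427 in control DRGs. In both genotypes replicate 3 was the lowest, and the log2 fold change was -0.06. Ephrin-A genes, whose products are anchored in the membrane by a lipid, had log2 fold changes between -0.04 and 0.17 in 5 genes. Efna5 averaged 548 ± 59.3 in Meis1cko and 544 ± 91.2 in control DRGs, with a 95% interval of -0.36 to 0.40. Efna2, with the smallest p of that family, had a log2 fold change of 0.17 (95% interval -0.24 to 0.58).

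Class 3 semaphorins were below 0 in 5 of 7 genes, and none had an unadjusted p under 0.05. Sema3c, a secreted semaphorin that signals through neuropilins and plexins, had intensities of 469, 423 and 347 in Meis1cko DRGs and of 585, 534 and 455 in control DRGs. Each Meis1cko mouse lay below the control mouse of its number, but Meis1cko replicate 1 was above control replicate 3. The means were 413 ± 61.5 in Meis1cko and 525 ± 65.7 in control, with a log2 fold change of -0.35 (95% interval -0.73 to 0.03). Its dimmer probe set gave -0.11.

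Sema3b, another secreted semaphorin, is the one member that the study lists, and that list was chosen on these arrays. Its brightest probe set had intensities of 509, 424 and 550.3 in Meis1cko DRGs, against 527, 491 and 716 in control DRGs, a log2 fold change of -0.21 (95% interval -0.64 to 0.21). The groups overlapped, although each Meis1cko mouse lay below its numbered control. The dimmest of its 3 probe sets had 129, 129 and 106 in Meis1cko, against 212, 182 and 169.8 in control, without overlap. There the log2 fold change was -0.63 (SE 0.14, limma adjusted p = 1.0), and with the replicate block the adjusted p was 0.156. The second probe set had 122, 108 and 442 in Meis1cko and 150.2, 139.8 and 525 in control DRGs, so replicate 3 was over 2-fold above the others in both genotypes. All 3 probe sets were thus lower in the Meis1cko mouse of each numbered pair, by unequal amounts.

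Sema3f, which signals through Nrp2, had a bright probe set whose replicates spread widely, at 428, 691 and 937 in Meis1cko and 585, 645 and 793 in control DRGs (log2 fold change -0.04, 95% interval -0.70 to 0.62). Its name carries the Affymetrix tag for probes that may also bind other transcripts. Sema3b and Sema3f lie on chromosome 9 with 3 protein-coding genes between them, and Sema3d and Sema3a are neighbours on chromosome 5. The remaining class 3 members had log2 fold changes between -0.15 and 0.12.

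Membrane-bound semaphorins were divided evenly about 0, with 7 of 13 above. Sema4f had intensities of 2675, 2843 and 2123 in Meis1cko DRGs and 2655, 2946 and 1943 in control DRGs, a log2 fold change of 0.03 (95% interval -0.43 to 0.48). Mice of the same number were closer to each other than to their own group. Sema7a, a lipid-anchored semaphorin that binds Plxnc1 and integrins, had 896, 825 and 825 in Meis1cko, against 676, 832 and 702 in control DRGs. Its log2 fold change was 0.21 (95% interval -0.09 to 0.51), and control replicate 2 lay within the Meis1cko range. Sema4c, a ligand of B-type plexins, had 258, 264 and 212 in Meis1cko, against 229.7, 227 and 174 in control DRGs (0.22, 95% interval -0.15 to 0.60), higher in each pair and overlapping between groups. Sema4d, the ligand of Plxnb1, had 455, 479.5 and 592 in Meis1cko, against 584, 522 and 538 in control DRGs, with the sign differing between pairs (-0.12). Sema5a, whose extracellular part carries thrombospondin repeats, had 394, 247 and 302 in Meis1cko, against 416, 320.3 and 384 in control DRGs, lower in each pair (-0.27, 95% interval -0.73 to 0.19).

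Sema6d, a transmembrane semaphorin, averaged 2372 ± 245 in Meis1cko and 2249 ± 134 in control DRGs. One of its dimmer probe sets lay lower without overlap (-0.37, SE 0.14, limma adjusted p = 1.0), the other sign from the brightest at 0.07.

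**Figure D3:**
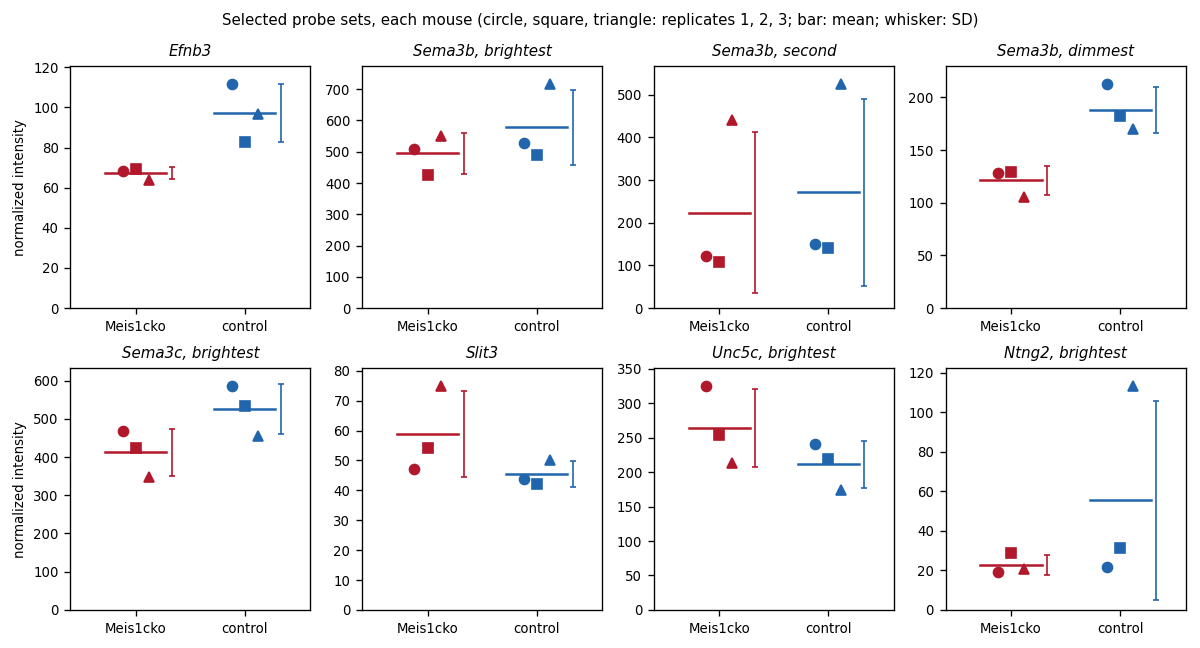
Normalized intensity (linear axes from 0) of 8 probe sets of 6 axon guidance genes in each mouse, Meis1cko in red on the left and control in blue on the right, with the mean as a bar and the SD as a whisker. Efnb3 and the dimmest Sema3b probe set separate the genotypes, the second Sema3b probe set is high in replicate 3 of both, and the Ntng2 difference comes with control replicate 3 at 113.

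Slits differed in sign among themselves. Slit3, a secreted repellent, had intensities of 47.2, 54.2 and 74.9 in Meis1cko DRGs and 43.9, 42.1 and 50.2 in control DRGs. All but Meis1cko replicate 3 lay below the median of their array. Each Meis1cko mouse lay above its numbered control, but the groups overlapped, with a log2 fold change of 0.35 (95% interval -0.09 to 0.79). Slit2, the slit that also promotes branching of sensory axons, had 478, 459.9 and 341 in Meis1cko, against 378, 402 and 323 in control DRGs, likewise higher in each pair and overlapping (0.20, 95% interval -0.19 to 0.60). Slit1 was on the other side of 0, at -0.14, with intensities of 835, 941 and 905 in Meis1cko, against 1127, 986 and 864 in control DRGs.

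Of the netrins and netrin-Gs, 2 of 6 were above 0 and none had an unadjusted p under 0.05. Ntng1, whose product is a lipid-anchored netrin relative that binds a synaptic partner and not Dcc, had intensities of 897, 1049 and 873 in Meis1cko and 818, 972 and 769 in control DRGs (log2 fold change 0.14, 95% interval -0.19 to 0.47). Its relative Ntng2 had the fold change farthest from 0 of all members, -0.92 (95% interval -2.23 to 0.40). The values were 19.1, 28.6 and 20.8 in Meis1cko, against 21.5, 31.5 and 113 in control, so 1 control mouse stood far above the others. Apart from that mouse Ntng2 was dim, below the array medians of 62.5 to 65.5. Without control replicate 3 the log2 fold change was -0.21, and without both replicate 3 arrays -0.15. Ntn1, the founding netrin, had 166, 105 and 94.0 in Meis1cko and 227, 116 and 135 in control DRGs (-0.37, 95% interval -1.09 to 0.34). Ntn4, a netrin found in basement membranes, had 177, 207 and 130.0 in Meis1cko, against 174, 161 and 109 in control DRGs, and lay on the other side of 0 (0.21, 95% interval -0.34 to 0.76).

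Among the receptors, the Unc5 genes and Dcc were the family whose members all lay above 0, by 0.07 to 0.31 in 5 genes. Unc5c, a receptor for netrin repulsion, had intensities of 325, 254 and 213 in Meis1cko DRGs, against 241, 219 and 174 in control DRGs. It was higher in the Meis1cko mouse of each pair, and the groups overlapped (log2 fold change 0.31, 95% interval -0.15 to 0.77). Its dimmer probe set gave 0.30. Dcc, the receptor for netrin attraction, had 41.7, 53.3 and 65.1 in Meis1cko and 33.2, 48.3 and 57.4 in control DRGs, with a log2 fold change of 0.22 (95% interval -0.35 to 0.79). Unc5a had 134, 157 and 157 in Meis1cko, against 138, 132 and 123 in control DRGs (0.19, 95% interval -0.10 to 0.48). No member of the family passed the test, and their shared sign is a description.

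Among the neuropilins and plexins, 6 of 11 genes were above 0, and the log2 fold changes ran from -0.12 to 0.26. Nrp1, the co-receptor for Sema3a, had intensities of 1851, 1949 and 1526 in Meis1cko and 1615, 2004 and 1952 in control DRGs (log2 fold change -0.07, 95% interval -0.42 to 0.28). Nrp2 averaged 843 ± 167 in Meis1cko and 768 ± 231 in control DRGs, with a log2 fold change of 0.17 (95% interval -0.46 to 0.79). Plxnc1, the receptor of Sema7a, had 5096, 4885 and 5019.9 in Meis1cko and 4797, 4779 and 5147 in control DRGs. Its log2 fold change of 0.03 had one of the narrower intervals, -0.23 to 0.28. Plxna1, a signalling partner of neuropilins, had 233, 239.7 and 184 in Meis1cko, against 184, 219 and 149 in control DRGs (0.26, 95% interval -0.17 to 0.68). Plxna2, a receptor of Sema6a, had 754, 686 and 346 in Meis1cko, against 659, 633 and 341 in control DRGs, with replicate 3 low in both genotypes (0.11, 95% interval -0.74 to 0.96). Plxnd1, the receptor of Sema3e, averaged 728 ± 105 in Meis1cko and 694 ± 51.7 in control DRGs. The means of Sema3e were 401 ± 123 in Meis1cko and 431 ± 24.4 in control. The other 5 plexins lay between -0.12 and 0.07.

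Robos, the slit receptors, had log2 fold changes between -0.06 and 0.01 in 3 of 4 genes. Robo1 had intensities of 385, 314 and 175 in Meis1cko, against 358, 402 and 268 in control DRGs, a log2 fold change of -0.29 (SE 0.30). Another Robo1 probe set was lower without overlap, at 58.9, 65.7 and 50.8 in Meis1cko and 74.8, 75.4 and 65.8 in control DRGs (-0.31, SE 0.14), and the dimmest gave 0.05. Robo4, best known from blood vessels, averaged 65.3 ± 3.25 in Meis1cko and 64.9 ± 4.29 in control DRGs. Robo1 and Robo2 are neighbours on chromosome 16, and Robo3 and Robo4 on chromosome 9.

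Eph receptors spread about 0 as well. Epha3 had intensities of 45.7, 28.7 and 19.1 in Meis1cko DRGs, against 63.0, 37.4 and 24.3 in control DRGs. All lay below the median of their array. The spread among mice of 1 genotype was wider than the difference within each pair, which had the same sign in all 3 (log2 fold change -0.40, 95% interval -1.36 to 0.57, limma adjusted p = 0.403 with the replicate block). Epha5 had 223, 149 and 88.0 in Meis1cko and 201, 175 and 125 in control DRGs (-0.20, SE 0.34). Epha4, a receptor of both ephrin classes and of Efnb3, averaged 52.6 ± 9.24 in Meis1cko and 52.3 ± 5.52 in control DRGs (0.00, 95% interval -0.38 to 0.38). Among the EphB receptors, Ephb3 was at -0.26 (95% interval -0.68 to 0.16) and Ephb6, which lacks kinase activity, at 0.02, with 199, 199 and 241 in Meis1cko and 209, 216 and 202 in control DRGs. Epha7, picked out after its values were seen, had 95.8, 88.0 and 31.2 in Meis1cko, against 71.3, 63.6 and 40.2 in control DRGs. Its log2 fold change was 0.18 with all arrays and 0.45 without both replicate 3 arrays.

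Arrays of the same replicate number deviated together, most clearly for replicate 3, so each member was also compared within the 3 pairs of equal number. The labels do not say what the numbers stand for or that same-numbered mice were matched. With the replicate block, 8 of 72 genes had an unadjusted p under 0.05, against 7.11% of all genes, as had 17 of 159 probe sets, against 6.99%. At the adjusted threshold 0 passed, against 0.0822% of all probe sets. The 8 genes were Efnb3, Epha3, Sema3c, Ntn1, Sema5a, Unc5c, Slit3 and Plxna1. The first 5 had log2 fold changes below 0 and the last 3 above. The smallest adjusted p was 0.338, for Efnb3. In every pair, 13 genes were higher and 10 lower in the Meis1cko mouse, against 12.9% and 17.2% of all genes.

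Several members were read by more than 1 probe set, and these often disagreed. Of the 47 genes with several, 19 (40.4%) had log2 fold changes of one sign throughout, against 42.0% of the 9010 such genes on the array. The median spread between probe sets of a gene was 0.24 on the log2 scale for members and 0.18 for all such genes. Over all 159 probe sets, 3 had an unadjusted p under 0.05 (background 2.32%), those of Efnb3, Sema3b and Sema6d already given, and all were lower in Meis1cko. One, the dimmest of Sema3b, was lower past the methods' thresholds (background 0.357%), and 0 were higher (background 0.318%). Without overlap, 6 were lower (background 3.43%) and 0 higher (background 3.21%). Beside those already described, the 6 include a second probe set of Sema5a (-0.62, SE 0.29) and a dim one of Sema3a (-0.23, SE 0.11). The Sema5a probe set had 143, 71.3 and 136 in Meis1cko, against 161, 146 and 215 in control DRGs.

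The replicate 3 arrays stood apart in the guidance genes too. In both genotypes, 6 of the 159 probe sets were over 2-fold above the mean of replicates 1 and 2 in replicate 3, against 1.93% of all probe sets, and 1, of Plxna2, was over 2-fold below, against 0.318%. None of these was the brightest of its gene. A dimmer Sema7a probe set had 47.9, 40.3 and 128 in Meis1cko and 25.6, 27.1 and 106 in control DRGs. The departure of replicate 3 had the same sign in both genotypes for 115 of the 159 probe sets, a share that was not counted over all probe sets.

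**Figure D4:**
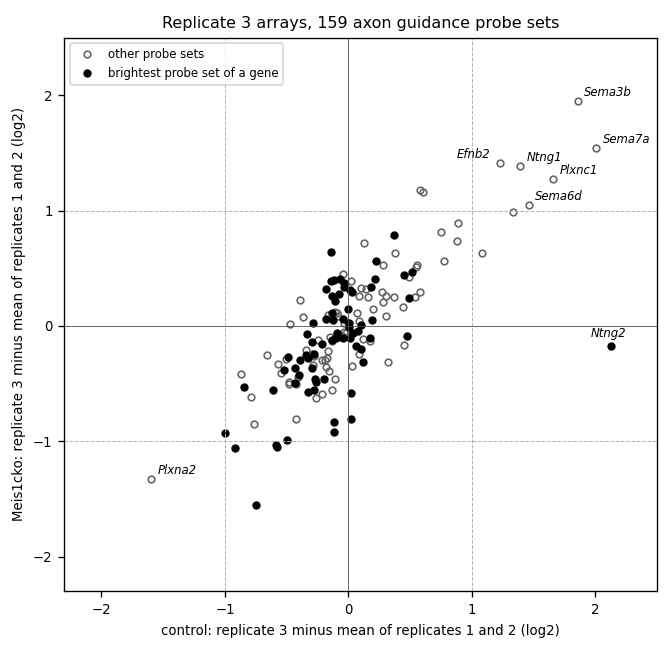
Log2 difference of replicate 3 from the mean of replicates 1 and 2 for 159 probe sets, Meis1cko on the vertical and control on the horizontal axis, with filled points for the brightest probe set of a gene and dashed lines at 2-fold. The 6 labelled probe sets at the upper right were over 2-fold high in replicate 3 of both genotypes, and Ntng2 was high in the control mouse alone.

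Guidance molecules outside these families were counted in the same way. Of 33 other cues and co-receptors, all measured, 0 passed the adjusted threshold and 2 were higher at an unadjusted p under 0.05, against 2.56% of all genes in either direction, with a median log2 fold change of 0.00. Rgmb, a bone morphogenetic protein co-receptor known from DRG neurons, had intensities of 1297, 1413 and 1936 in Meis1cko, against 999, 908 and 1086 in control DRGs (log2 fold change 0.62, SE 0.18, limma adjusted p = 1.0). Cxcr4, a chemokine receptor that guides migrating cells, had 143, 168 and 128 in Meis1cko, against 106, 89.6 and 96.1 in control DRGs (0.58, SE 0.14, limma adjusted p = 1.0). Neither gene overlapped between genotypes, and 3.12% of all genes were higher without overlap. Nfasc, named after its values were seen, was also higher without overlap (0.21), with an unadjusted p over 0.05. Omg, a myelin inhibitor of axon growth, was lower without overlap (-0.24, background 3.82% of all genes), with an unadjusted p over 0.05.

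With the replicate block, 4 of the 33 cues and co-receptors were higher at an unadjusted p under 0.05 and 0 lower, against 7.11% of all genes, and 0 passed the adjusted threshold. They were Rgmb and Cxcr4, and 2 genes whose groups overlapped. Cxcl12, the ligand of Cxcr4, had 325, 227 and 160.3 in Meis1cko, against 177, 163 and 122 in control DRGs (0.58, limma adjusted p = 0.281 with the block). Neo1, which encodes neogenin, a Dcc relative that binds netrins and Rgm proteins, was at 0.63 (limma adjusted p = 0.227 with the block) and was named after its values were seen. Both were higher in the Meis1cko mouse of each pair.

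Of the intracellular effectors, 53 of 57 were measured, 0 passed the adjusted threshold and 1 was lower at an unadjusted p under 0.05, against 2.56% of all genes in either direction, with a median of -0.04. With the replicate block 1 was higher and 3 lower, against 7.11% of all genes, and 0 passed the adjusted threshold. Dpysl4, of the collapsin response mediator family that acts downstream of semaphorins, had 164, 158 and 107 in Meis1cko, against 260.4, 240.9 and 161 in control DRGs (-0.62, SE 0.24, limma adjusted p = 1.0). Fes, a kinase that binds A-type plexins, was at 0.27, Srgap1, which acts below robos, at 0.24, and Trim67, a ubiquitin ligase that binds Dcc, at 0.21, each with an unadjusted p over 0.05 without the block. The 4 genes counted with the block were Fes, Dpysl4 and, named after their values were seen, Gipc1 (-0.50), an adaptor for neuropilins, and Dcx (-0.46), a microtubule-binding protein, both lower in every pair.

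Markers of the cell types of the ganglion were set beside these values, against 45.8% of all genes above 0 and 2.56% at an unadjusted p under 0.05 in either direction. In the fibroblast and sheath list, 8 of 10 markers were below 0, 4 of them (Lum, Col1a1, Col1a2 and Col3a1) at an unadjusted p under 0.05, with a median of -0.48. Their summed intensity ranged over 11107 to 16296 in Meis1cko and 14337 to 26596 in control mice. Bright genes weigh most in this sum. Ptgds among them was uneven in both genotypes, at 4760, 1049 and 3235 in Meis1cko and 7802, 1989 and 5546 in control mice. Control replicate 1 stood far above the other controls in Col1a2 (4905, 2965 and 2469 in replicates 1 to 3) and Col3a1 (2904, 1518 and 1487). It did not in Lum (1158, 913 and 1119). With the replicate block, 6 were lower and 1 higher at an unadjusted p under 0.05, against 7.11% of all genes. Lum, a collagen-matrix proteoglycan, then passed the adjusted threshold (log2 fold change -1.34, limma adjusted p = 0.00717 with the block and 0.0686 without).

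In the mural cell list, 7 of 8 were above 0, 3 of them (Acta2, Tagln and Cnn1) at an unadjusted p under 0.05, with a median of 0.18 and sums of 4809 to 8330 in Meis1cko and 4355 to 6281 in control mice. All 6 measured markers of large mechanoreceptors and proprioceptors were above 0, with a median of 0.16. Their sums did not overlap, at 10459 to 10738 in Meis1cko and 9118 to 9588 in control mice. Kcna1, with means of 5086 in Meis1cko and 4450 in control, made up the largest part of them. No share over all genes was counted for such sums. By gene, Kcna1 and Ntrk3 were higher without overlap, against 3.12% of all genes, and Ntrk2, Pvalb, Runx3 and Kcnc1 overlapped. Ntrk3, the neurotrophin-3 receptor gene, was at 0.48 with an unadjusted p under 0.05. Of 8 satellite glia markers, 5 were below 0, with Ednrb (-0.67) and Kcnj10 (-0.36) at an unadjusted p under 0.05, a median of -0.05 and overlapping sums of 27525 to 29059 in Meis1cko and 27074 to 31098 in control mice.

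Further single markers at an unadjusted p under 0.05 were Scn10a of nociceptors (0.48), Sox17 of endothelial cells (1.04) and Mrc1 of macrophages (-0.90). Scn10a is the gene of the Nav1.8 channel, whose promoter region drives Cre in the Meis1cko mice. Any part of the transgene in its value was not tested. The list medians were 0.03 over 7 nociceptor markers, 4 of them above 0, and 0.08 over 10 endothelial markers, 6 of them above 0. The median was -0.19 over 8 macrophage markers, 6 of them below 0. With the replicate block, 3 macrophage and 2 satellite glia markers were lower at an unadjusted p under 0.05, against 7.11% of all genes. Higher with it were 1 nociceptor, 2 endothelial, 3 mural cell and 2 large mechanoreceptor and proprioceptor markers. The sensory neuron, Schwann cell, skeletal muscle, spinal cord and blood lists held 0 genes at an unadjusted p under 0.05 without the block, with medians of 0.04, -0.05, -0.27, 0.06 and -0.29. With the block, the sensory neuron list held 1 lower, and the Schwann cell and skeletal muscle lists 1 higher each. Muscle content was uneven, with sums of 591 to 1446 in Meis1cko and 333 to 3118 in control mice. Blood sums were 415 to 525 in Meis1cko and 361 to 1027 in control mice. None of the 12 marker lists had a gene past the adjusted threshold without the block, and Lum was the 1 that passed with it. The part of these cell types in the values of Efnb3, Sema3b, Sema3c, Unc5c and Cxcr4 was not tested.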

How the data were processed

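The series has 3 Meis1cko and 3 control DRG arrays at P60. The table holds, as deposited, intensity values that the authors normalized and left linear, from images read with the Affymetrix GeneChip Command Console and analysed in GeneSpring. The normalization method and any treatment of dim probe sets are not given in the sources used here. The methods name an RNeasy kit, and the labels Trizol.

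Intensities were taken to log2 (floor 1, reached by 0 values) and compared for 45037 probe sets, leaving out 64 control probe sets, with limma 3.58.1 (lmFit, eBayes; R 4.3.3) and Benjamini-Hochberg adjustment (threshold 0.05). Of these, 34945 have 1 gene symbol, 932 several and 9160 none. All 72 member gene IDs were found in the RefSeq table. The number of arrays limits the precision.

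Arrays of the same replicate number deviated together (r = 0.424, 0.535 and 0.766), and r between other numbers was 0.337 and 0.319, or -0.60 to -0.52 with replicate 3. Deviations within a genotype cancel out, so the departure of replicate 3 alone makes replicates 1 and 2 of both genotypes deviate together. The numbers, which come from the sample labels, were taken to pair the arrays, but the labels do not say what they stand for.

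Members and lists were chosen with earlier results of these data known. Named genes are, per family, the one with the brightest probe set and the one with the smallest p, any member past an unadjusted p of 0.05 or the methods' thresholds, Sema3b, and up to 4 genes per pathway list. Ntn1, Dcc, Sema6d, Robo4, Sema5a, Sema3a, Epha7 and other members were named after their values were seen. The script was tested on simulated data. Alternatives were quantile normalization, median centring, an offset of 16, filters at the median and the 25th percentile, a variance trend, array weights, the replicate block, arrays left out, gene means, adjustment over genes and the methods' t-test.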

Additional observations from a re-analysis of the deposited data

How the results depend on the processing

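No guidance gene passed the adjusted threshold under any alternative, including the replicate block (0 higher, 0 lower and 0 probe sets called), which changed no call among them. Among the list genes, whose results were counted only with and without the block, Lum passed with it. With array weights, 12 of 72 genes had an unadjusted p under 0.05, against 15.4% of all genes, and the smallest adjusted p was 0.171. Leaving out each mouse in turn gave 0 to 0 calls at the adjusted threshold, 0 to 1 genes higher past the methods' thresholds (1, Epha7, without Meis1cko replicate 3) and 0 to 1 lower (1 without control replicate 1, Ntng2 at -1.41, and 1 without control replicate 2, Efnb3 at -0.63). The median log2 fold change of the members ranged over -0.0271 to 0.0330 when each mouse was left out, at -0.0271 without control replicate 3. Efnb3 kept its direction in all 19 alternatives, with log2 fold changes of -0.63 to -0.39. Efnb3 was named for a difference without overlap on these arrays, so leaving out mice could not change its sign. Its kept direction is therefore no support. Efna2, Plxna1, Plxnc1, Sema3b, Sema3c, Sema7a, Slit1 and Unc5c also kept their sign in all 19. Efna5, Efnb2, Epha5, Ephb3, Ephb6, Nrp1, Nrp2, Ntng1, Robo1, Sema3f and Sema4f changed sign in at least 1 alternative and passed the adjusted threshold in none. Leaving out both replicate 3 arrays with the replicate block was added after seeing the data. The count of member probe sets has no value for gene means or for adjustment over genes. Filters at the median and the 25th percentile left 55 and 68 of the 72 genes. The causes were not tested.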
